A study of Mus musculus with 15 samples.

Results

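Transcripts of 9 liver-enriched transcription factors, Hnf4a, Cebpa, Cebpb, Foxa1, Foxa2, Foxa3, Nr5a2, Nr1h3 and Prox1, were followed through the livers of mice on a control or an alcohol diet. They were chosen by gene symbol as factors that set and hold the hepatocyte programme, and all 9 were found once each among the 18510 rows of the deposited expression table. Liver RNA of 15 mice of WT genotype was sequenced. There were 5 mice on a control diet (Ctrl). Another 5 were fed the alcohol diet alone (Alc), and 5 more were fed it together with UA (Alc UA), an abbreviation that the labels leave unexplained. The sources used here do not give the strain, age or sex of the animals, the length of the diets or the doses of alcohol and UA. The labels do not state that each library came from a separate mouse, although the series design counts 5 mice per group, so p-values measure the spread between these libraries. Levels are in FPKM (fragments per kilobase of transcript, scaled to the mapped fragments of the library), which puts genes of different length on a comparable scale.

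Hepatocytes keep their identity through a small network of transcription factors that bind each other's promoters as well as those of the liver's secretory and metabolic genes. HNF4A, a nuclear receptor, is its hub. The C/EBP factors are leucine zipper proteins, the FOXA factors are forkhead proteins that can bind compacted chromatin, LRH-1 (encoded by Nr5a2) and LXR alpha (encoded by Nr1h3) are nuclear receptors of bile acid and sterol metabolism, and PROX1 is a homeobox factor that also marks lymphatic endothelium and can repress HNF4A and LRH-1 activity.

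The sequences before the start sites of Nr5a2, Foxa3 and Cebpa are shown. They were picked because the Foxa3 to Nr5a2 and Cebpa to Foxa3 ratios did not overlap between controls and either alcohol group (below). The Cebpa to Nr5a2 ratio did overlap, and the share of member ratios apart was not above that of all gene pairs. Each sequence is the 250 bases before a RefSeq start site in build GRCm38.p6, read along the strand of the gene. The sources used here do not name the build behind the deposited table. Nr5a2 has a further start site in that table, and the window shown is the more upstream one. Capitals mark matches to the motifs given below. The windows are chr1:136960449-136960698 on the minus strand for Nr5a2, chr7:19023540-19023789 on the minus strand for Foxa3 and chr7:35119043-35119292 on the plus strand for Cebpa.
Nr5a2: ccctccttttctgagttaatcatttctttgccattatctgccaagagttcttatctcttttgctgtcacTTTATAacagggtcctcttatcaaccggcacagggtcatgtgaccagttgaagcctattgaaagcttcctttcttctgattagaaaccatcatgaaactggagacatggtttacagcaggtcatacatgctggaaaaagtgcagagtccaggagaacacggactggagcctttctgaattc
Foxa3: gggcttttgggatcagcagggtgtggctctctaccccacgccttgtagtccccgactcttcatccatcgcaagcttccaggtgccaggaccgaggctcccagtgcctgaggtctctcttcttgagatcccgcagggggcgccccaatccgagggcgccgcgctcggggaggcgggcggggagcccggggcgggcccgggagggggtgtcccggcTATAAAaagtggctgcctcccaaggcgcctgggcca
Cebpa: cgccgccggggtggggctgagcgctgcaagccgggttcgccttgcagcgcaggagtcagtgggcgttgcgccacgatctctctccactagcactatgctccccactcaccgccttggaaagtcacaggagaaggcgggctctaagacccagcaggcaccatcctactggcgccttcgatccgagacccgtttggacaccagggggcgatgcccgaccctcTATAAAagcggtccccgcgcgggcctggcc

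All 9 genes had an entry in the promoter table, with 15 start sites among them, and 7 motifs were searched on both strands in the windows of 300 bases, which also include the first 50 transcribed bases. TATAAA, the letters of the TATA box, was found on either strand and at any position in 6 of the 15 windows, against 13.6% of all 32851 windows of that length. On the strand of the gene it began 30 bases before the start in Cebpa and 36 bases before it in Foxa3 (positions -30 and -36). In Cebpb it lay on that strand within the transcribed bases, from 22 to 27. On the opposite strand it lay from -181 to -176 in Nr5a2, from -208 to -203 in a Foxa2 window and from -34 to -29 in a Prox1 window. The FOXA motif TGTTTAC was in the Foxa1 window, on the opposite strand, and in 3.65% of all windows. No member window held CAAAGTCCA (HNF4; 0.475% of all windows), TTGCGCAA (C/EBP; 0.183%), CAAGGTCA (LRH-1; 1.56%), CACGTG (E-box; 7.15%) or TTATGTAA (D-box; 0.938%). A match is a run of letters and not a measured binding site.

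All 9 transcripts were present in every library, and all passed the filter of at least 1 FPKM in at least 5 of the 15 libraries, as did 10959 genes in all. Cebpa was the most abundant by length, at 151 FPKM over the 15 libraries (range 108.6 to 196.55), higher than 95.2% of tested genes. Hnf4a followed at 113 FPKM, Cebpb at 73.5 and Nr1h3 at 43.0, and the ranges of Cebpa and Hnf4a overlapped across libraries. Prox1 (18.6 FPKM), Foxa3 (16.9), Nr5a2 (12.6) and Foxa2 (11.6) lay close together, with overlapping ranges between neighbours in this order. Foxa1 was the lowest, at 5.43 FPKM, still above 41.2% of tested genes. The plot of levels by liver gives every value.

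**Figure D1:**
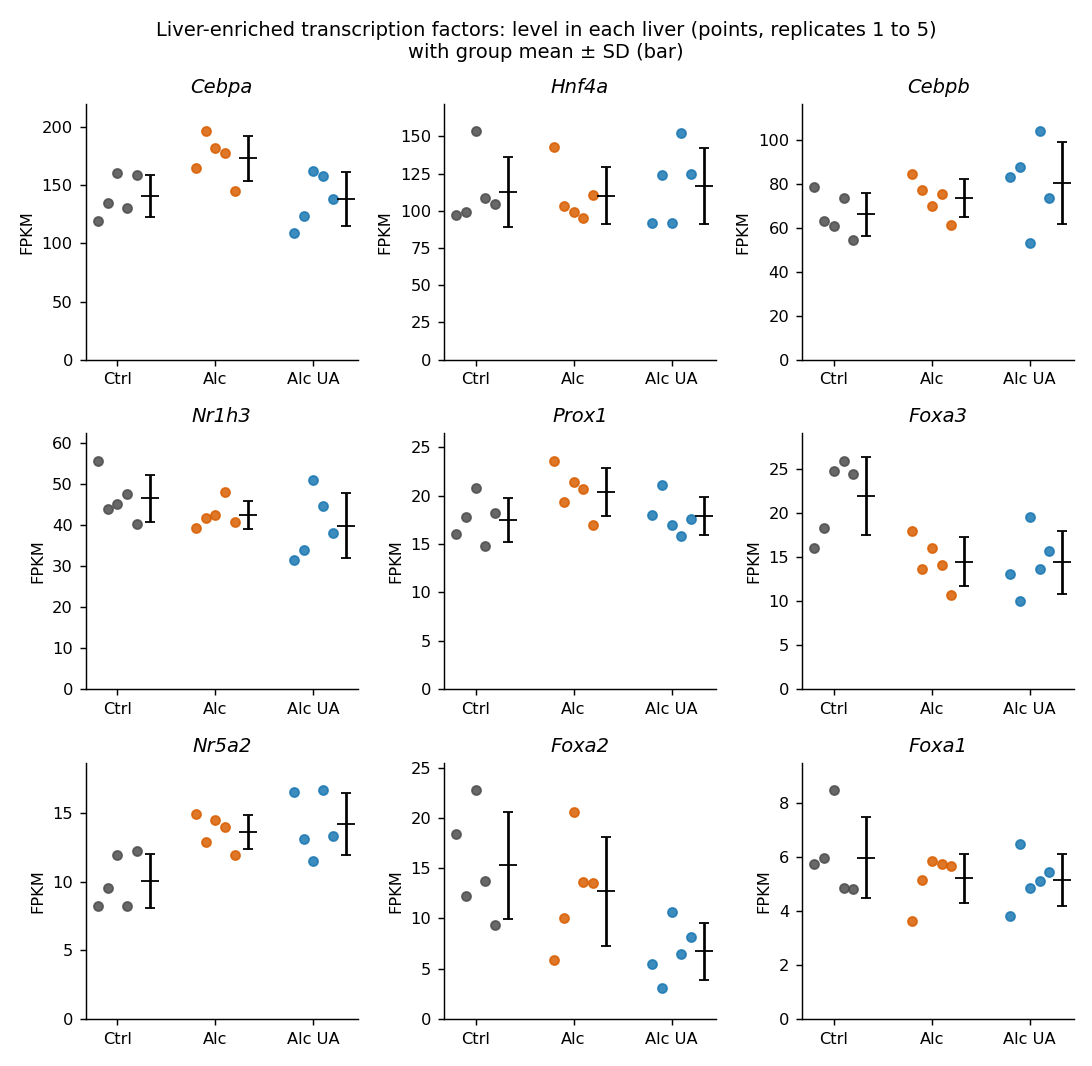
Level of each factor in FPKM (vertical axis, from 0, with its own scale in each panel) in each of the 15 livers (points, replicates 1 to 5 from left to right) by diet group, with the group mean and SD beside the points. Nr5a2 sat higher and Foxa3 lower in both alcohol groups than in most controls, Foxa2 was lowest in Alc UA, and the groups overlap in every panel.

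The factors differed in how far they varied between livers of the same group. Foxa2 was the most variable, with a residual SD of 0.55 on the log2(FPKM + 1) scale, larger than that of 96.0% of tested genes, and a 7.34-fold range from 3.1 to 22.76 FPKM. Prox1 was the steadiest, with a residual SD of 0.16, larger than that of 32.3% of tested genes. The coefficient of variation over the 15 libraries was 49.2% for Foxa2, 29.3% for Foxa3 and 13.3% for Prox1. Ctrl 3 was the highest control for 5 of the 9 genes, Alc 1 was the highest of its group for 5 and Alc 5 the lowest of its group for 5. Ctrl 3 also held the highest Hnf4a of all libraries, at 153.47 FPKM.

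The comparison of Alc with Ctrl asks whether the alcohol diet went with altered transcripts of these factors. Nr5a2 rose, Foxa3 fell, and the other 7 did not pass the test. The count of 2 of 9 stands beside 33.3% of all tested genes called (limma, Benjamini-Hochberg adjusted p under 0.05 over all 10959 genes); 1 was higher, against 10.6% of all genes, and 1 lower, against 22.8%. The share of members called was thus not above the background. No member had groups that did not overlap (0 of 9, against 15.8% of all genes, 6.18% higher and 9.61% lower). The median absolute difference was 0.21 for the members and 0.25 for all tested genes. Differences are given as log2(FPKM + 1) of the first group minus the second ± SE, and the median difference of all tested genes was -0.12.

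Nr5a2 encodes LRH-1, which activates genes of bile acid synthesis and of cholesterol uptake from lipoproteins. It was at 8.26, 9.53, 11.94, 8.21 and 12.24 FPKM in Ctrl 1 to 5 and at 14.95, 12.86, 14.49, 13.97 and 11.91 in Alc 1 to 5. All 5 Alc livers lay above the control mean, and only Alc 5 lay within the control range. The mean was 13.6 ± 1.24 in Alc against 10.04 ± 1.95 in Ctrl (SD, n = 5 each), 1.36-fold higher (log2 difference 0.42 ± 0.13, adjusted p = 0.019; 0.54 relative to the median of all genes). Leaving out Ctrl 4, the lowest control, gave an adjusted p of 0.053, and the call held under the other 26 alternatives.

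Foxa3, a forkhead factor that binds many of the same liver genes as Foxa1 and Foxa2, moved the other way. It was at 16.04, 18.23, 24.74, 25.89 and 24.38 FPKM in Ctrl 1 to 5, and at 17.97, 13.59, 16.04, 14.09 and 10.65 in Alc 1 to 5. All 5 Alc livers lay below the control mean, and Alc 1 and Alc 3 reached the range of the controls, whose lowest value was in Ctrl 1. The means were 14.5 ± 2.75 in Alc and 21.9 ± 4.41 in Ctrl, a fall by 0.56 ± 0.17 on the log2 scale (adjusted p = 0.022), or by 0.44 relative to all genes. The call ended under each rescaling of the libraries: the adjusted p was 0.075 for quantile-normalized values, 0.14 with median-of-ratios size factors and 0.079 with libraries scaled to the same sum. It also ended without Ctrl 3, without Ctrl 4 and without Alc 5 (adjusted p = 0.052, 0.060 and 0.067).

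The other forkhead genes gave no call. Foxa1, which acts early in liver development together with Foxa2, ranged from 4.81 to 8.46 FPKM in Ctrl and from 3.63 to 5.84 in Alc (-0.16 ± 0.15, adjusted p = 0.43; 95% interval -0.48 to 0.16). Foxa2, whose protein has been reported to leave the nucleus under insulin signalling, was at 18.37, 12.23, 22.76, 13.77 and 9.31 FPKM in Ctrl 1 to 5 and at 5.84, 10.04, 20.55, 13.64 and 13.49 in Alc 1 to 5 (-0.29 ± 0.31, adjusted p = 0.50). Its interval, -0.94 to 0.37, was the widest among the members.

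Cebpa, which drives genes of the urea cycle and of glucose and glycogen metabolism and restrains hepatocyte division, was at 119.39, 134.51, 160.22, 130.67 and 158.5 FPKM in Ctrl 1 to 5. In Alc 1 to 5 it was at 165.23, 196.55, 181.77, 177.51 and 145.3. All 5 Alc livers lay above the control mean, and Alc 5 overlapped with the controls. The difference was 0.30 ± 0.13 (95% interval 0.03 to 0.57) and did not pass over all genes (adjusted p = 0.076). It did pass under each rescaling (adjusted p = 0.042 for quantile-normalized values, 0.020 with median-of-ratios size factors and 0.027 with libraries scaled to the same sum), with library weights (0.014) and without Ctrl 5 (0.049). Cebpb, the C/EBP factor of the acute-phase and regenerative response, ranged from 54.78 to 78.96 FPKM in Ctrl and from 61.25 to 84.73 in Alc (0.15 ± 0.15, adjusted p = 0.46).

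Hnf4a was at 96.99, 98.96, 153.47, 108.74 and 104.79 FPKM in Ctrl 1 to 5 and at 142.48, 103.08, 99.18, 95.07 and 110.8 in Alc 1 to 5. The groups overlapped almost entirely, and each held a single high liver, Ctrl 3 and Alc 1. The difference was -0.03 ± 0.16 with a 95% interval of -0.37 to 0.32 (adjusted p = 0.91), and its sign turned under the 3 rescalings, with library weights, and without Ctrl 3, Alc 3 or Alc 4. Nr1h3, the oxysterol receptor, ranged from 40.27 to 55.71 in Ctrl and from 39.4 to 48.01 in Alc (-0.12 ± 0.12, interval -0.38 to 0.14, adjusted p = 0.45), and its sign also turned with median-of-ratios size factors and with libraries scaled to the same sum. Prox1 ranged from 14.78 to 20.74 in Ctrl and from 16.95 to 23.61 in Alc (0.21 ± 0.11, interval -0.01 to 0.44, adjusted p = 0.13); it passed with median-of-ratios size factors (adjusted p = 0.031) and with libraries scaled to the same sum (0.048).

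**Figure D2:**
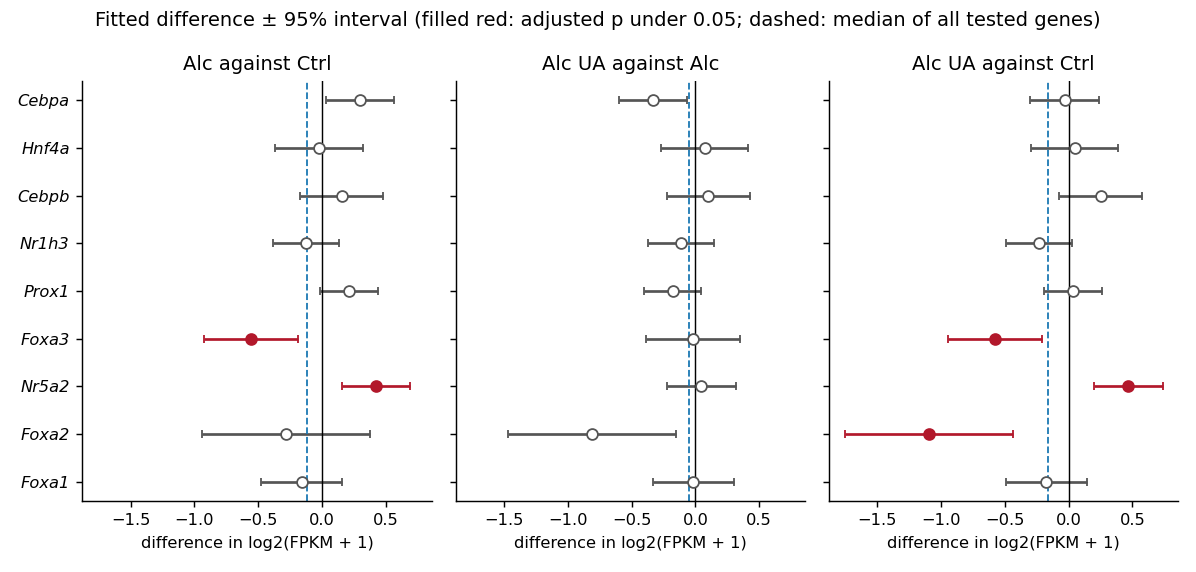
Fitted difference in log2(FPKM + 1) (horizontal axis) with its 95% interval for each factor in the 3 comparisons; filled red points passed an adjusted p of 0.05, and the dashed line is the median difference of all 10959 tested genes (-0.12, -0.05 and -0.16 from left to right). Nr5a2 and Foxa3 passed in both comparisons with Ctrl, Foxa2 passed in Alc UA against Ctrl, and no factor passed in Alc UA against Alc.

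Whether UA altered the factors on the alcohol diet is asked by Alc UA against Alc. No member was called (0 of 9, against 0.00912% of all tested genes, which is 1 gene, Mup5, named after its values were seen), and 2 of 9 had an unadjusted p under 0.05, against 6.06% of all genes. Foxa2 was at 5.42, 3.1, 10.62, 6.43 and 8.13 FPKM in Alc UA 1 to 5, where all 5 livers lay below the Alc mean. Its mean was 6.74 ± 2.83 against 12.7 ± 5.41 in Alc, a difference of -0.81 ± 0.31 (unadjusted p = 0.019, adjusted p = 0.79; 95% interval -1.47 to -0.15). Cebpa was at 108.6, 123.15, 162.5, 158.18 and 138.54 FPKM in Alc UA 1 to 5, and again all 5 lay below the Alc mean (-0.33 ± 0.13, unadjusted p = 0.018, adjusted p = 0.79; interval -0.60 to -0.07). The groups overlapped for both genes, and for all 9 members (0 of 9 apart, against 1.18% of all genes, 0.283% higher and 0.894% lower).

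The remaining 7 factors differed by -0.18 to 0.10 between Alc UA and Alc (adjusted p = 0.83 to 0.99). For Nr5a2 the interval of the difference was -0.22 to 0.32 and for Foxa3 it was -0.39 to 0.35, so changes of Nr5a2 and Foxa3 as large as those between Alc and Ctrl (0.42 and -0.56) lay outside their own intervals. Hnf4a ranged from 91.45 to 151.92 FPKM in Alc UA (0.07 ± 0.16), Cebpb from 53.45 to 104.25 (0.10 ± 0.15), Nr1h3 from 31.59 to 50.92 (-0.11 ± 0.12), Prox1 from 15.8 to 21.12 (-0.18 ± 0.11) and Foxa1 from 3.81 to 6.46 (-0.02 ± 0.15).

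Alc UA against Ctrl shares its libraries with both comparisons above and is set beside them rather than used as separate evidence. Here 3 of 9 members were called, against 42.6% of all tested genes; 1 was higher, against 10.5%, and 2 lower, against 32.1%. Again all 9 overlapped (0 apart, against 20.2% of all genes, 5.48% higher and 14.7% lower). Nr5a2 was at 16.53, 13.09, 11.52, 16.66 and 13.3 FPKM in Alc UA 1 to 5, a mean of 14.2 ± 2.28, 1.42-fold the control mean (0.47 ± 0.13, adjusted p = 0.0082), with only Alc UA 3 inside the control range. Foxa3 was at 13.07, 9.98, 19.55, 13.6 and 15.69, a mean of 14.4 ± 3.54, and fell by 0.58 ± 0.17 (adjusted p = 0.015). Foxa2 fell by 1.10 ± 0.31 (adjusted p = 0.011), to 0.441 of the control mean of 15.3 ± 5.31, with Alc UA 3 overlapping the lowest control, Ctrl 5. The Foxa2 and Nr5a2 calls held under all 27 alternatives, with an adjusted p of at most 0.031 and 0.025. The Foxa3 call ended with median-of-ratios size factors and for quantile-normalized values (adjusted p = 0.18 and 0.078).

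Of the factors without a call against Ctrl, Cebpb was at 83.25, 87.7, 53.45, 104.25 and 73.85 FPKM in Alc UA 1 to 5 (0.25 ± 0.15, adjusted p = 0.19). It passed with median-of-ratios size factors (0.019), for quantile-normalized values (0.038) and without Alc UA 3 (0.026), its lowest library. Nr1h3 was -0.23 ± 0.12 (adjusted p = 0.13) and passed without Alc UA 3 (0.031). Alc UA 3 also stood apart in markers of Kupffer cells, with values given further on; their part in the Cebpb and Nr1h3 values was not tested. Hnf4a was 0.05 ± 0.16, Cebpa -0.03 ± 0.13, Foxa1 -0.17 ± 0.15 and Prox1 0.03 ± 0.11 (adjusted p = 0.36 to 0.86).

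**Figure D3:**
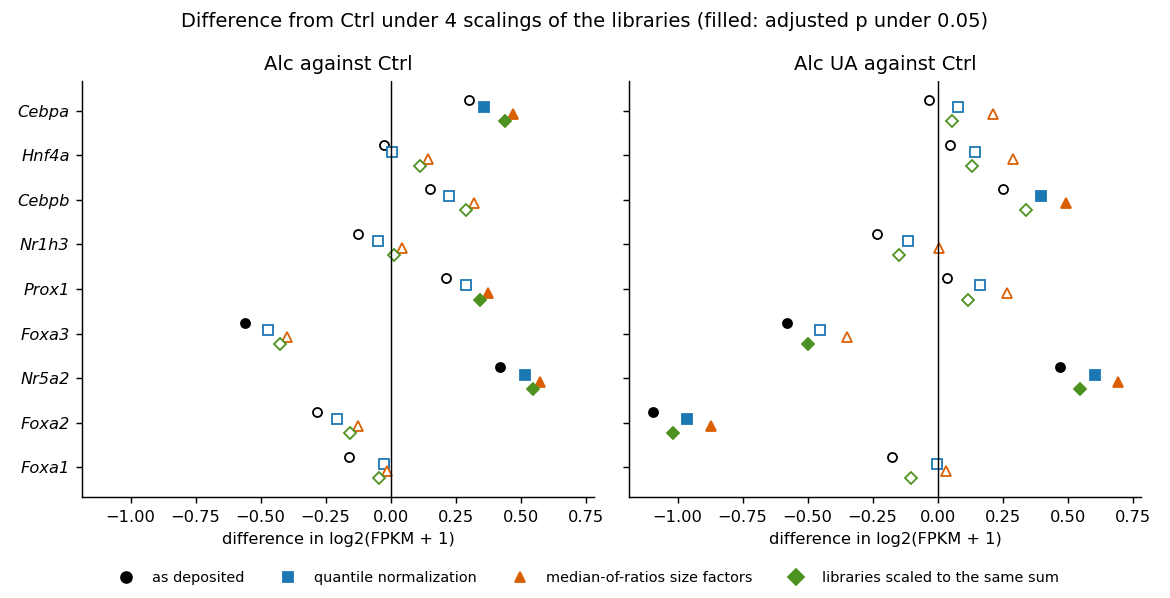
Difference from Ctrl in log2(FPKM + 1) for each factor (horizontal axis) on the deposited scale (circles) and after 3 rescalings of the libraries (squares, triangles and diamonds), filled where the adjusted p was under 0.05. The rescalings moved the factors together to the right: Nr5a2 stayed above 0 and filled throughout, Foxa3 stayed below 0 but was open in both panels with size factors and for quantile-normalized values, and Hnf4a crossed 0 in Alc against Ctrl.

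Most called genes were lower in the alcohol groups on the deposited scale, and rescaling changed that split. In Alc against Ctrl, 1157 genes were higher and 2497 lower on the deposited scale, against 2049 and 2024 for quantile-normalized values, 2206 and 1672 with median-of-ratios size factors and 1602 and 1294 with libraries scaled to the same sum. In Alc UA against Ctrl, 1152 were higher and 3521 lower, against 2420 and 2430, 2738 and 2022, and 1310 and 2540. Among the members in Alc against Ctrl, the split of 1 higher and 1 lower became 2 and 0 after quantile normalization and 3 and 0 in the other rescalings.

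A ratio of transcripts within a liver does not change when all values of the library are multiplied by 1 factor, as with size factors or equal sums, although quantile normalization, which shifts genes unequally, can change it. Ratios here are of deposited values. All 36 ratios among the 9 factors were formed as a description, with no test. Between Alc and Ctrl 3 of 36 did not overlap, against 19.3% of all pairs of genes above 0 in every library. All of them involved Foxa3. The Foxa3 to Nr5a2 ratio was 0.894 to 1.202 in Alc and 1.913 to 3.153 in Ctrl, the Foxa3 to Prox1 ratio was 0.6283 to 0.7611 against 1.002 to 1.752, and the Cebpa to Foxa3 ratio was 9.195 to 14.46 against 5.047 to 7.443. Between Alc UA and Ctrl 3 of 36 did not overlap, against 21.9% of all pairs. These were Foxa3 to Nr5a2 (0.7624 to 1.697 in Alc UA), Cebpa to Foxa3 (8.309 to 12.34) and Foxa2 to Nr1h3 (0.09118 to 0.2137 against 0.2312 to 0.5032 in Ctrl). Between Alc UA and Alc, 0 of 36 stood apart, against 1.5% of all pairs. In no comparison was the share of member ratios that stood apart above that of all pairs.

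Read as Nr5a2 over Foxa3, the ratio was 0.468 ± 0.0857 in Ctrl, 0.958 ± 0.107 in Alc and 1.05 ± 0.316 in Alc UA (SD, n = 5 each). Every control liver had at least 1.91 times as much Foxa3 as Nr5a2, while in 1 of 5 Alc and 3 of 5 Alc UA livers Nr5a2 was the more abundant. The ratio of Cebpa to Cebpb was 2.18 ± 0.575 in Ctrl, 2.36 ± 0.253 in Alc and 1.83 ± 0.711 in Alc UA. It overlapped between all groups, from 1.51 to 2.89 in Ctrl, 1.95 to 2.59 in Alc and 1.30 to 3.04 in Alc UA.

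**Figure D4:**
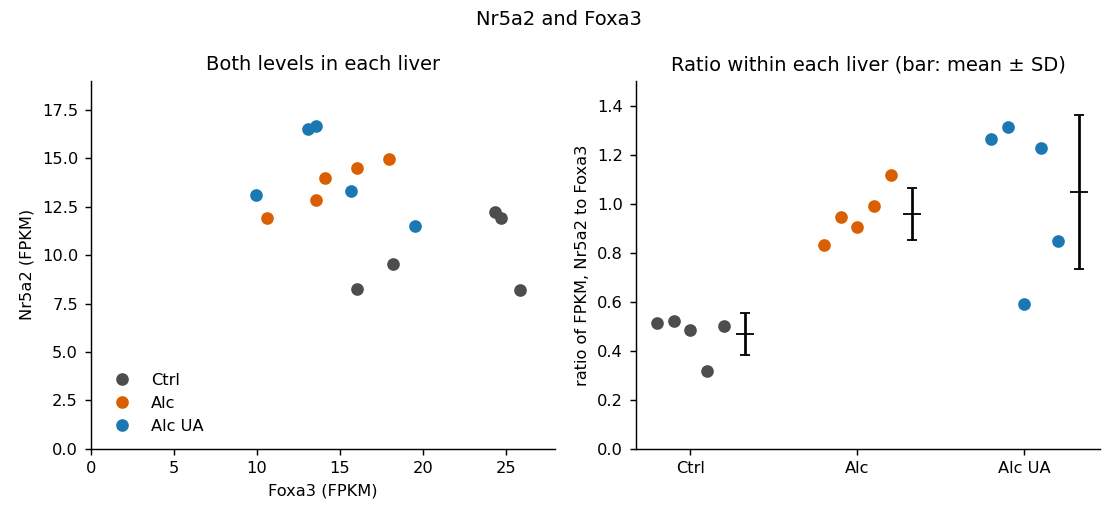
Left, Foxa3 (horizontal axis) against Nr5a2 (vertical axis) in FPKM for each of the 15 livers, coloured by diet group. Right, the ratio of Nr5a2 to Foxa3 within each liver with the group mean and SD; controls lie between 0.317 and 0.523, Alc livers between 0.832 and 1.118 and Alc UA livers between 0.589 and 1.31.

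Known targets of the factors were described by count, beside the share of all genes called in each comparison given above. Of 13 LRH-1 targets, 4 rose and 2 fell in Alc against Ctrl (median 0.43), and of 15 LXR targets 5 rose and 1 fell (median 0.40). The risen genes on both lists included the sterol exporters Abcg5 (49.6 ± 7.80 in Alc, 29.7 ± 2.41 FPKM in Ctrl; 0.71 ± 0.12, adjusted p = 7.2e-04) and Abcg8 (34.7 ± 7.68 and 16.4 ± 4.43; 1.05 ± 0.17, adjusted p = 4.6e-04). Slc10a1, the bile acid uptake transporter and a gene of the LRH-1 and FOXA lists, was at 601.5 ± 16.6 in Alc and 323.5 ± 52.0 in Ctrl, and Abca1, a cholesterol exporter on the LXR list, was at 14.5 ± 0.845 and 9.06 ± 1.46. Nr0b2, the small heterodimer partner gene that LRH-1 activates and that represses LRH-1 in turn, was at 27.7 ± 16.5 in Ctrl, 25.3 ± 8.01 in Alc and 11.5 ± 4.32 in Alc UA; it did not pass in Alc against Ctrl (0.07, adjusted p = 0.91) and fell in Alc UA against Ctrl by 1.02 ± 0.37 (adjusted p = 0.037). Cyp7a1, the rate-limiting enzyme of bile acid synthesis, did not pass in Alc against Ctrl (0.52, adjusted p = 0.37). The fallen LRH-1 targets were Abcb4 (108 ± 8.32 in Alc, 145 ± 13.6 in Ctrl, adjusted p = 0.013) and Cyp8b1 (307 ± 42.6 and 476 ± 90.8, adjusted p = 0.039). Mylip was the fallen LXR target (5.18 ± 1.19 and 12.1 ± 4.12, adjusted p = 0.0028). The LRH-1 split was 4 risen and 1 fallen for quantile-normalized values, and 4 and 0 with size factors and with equal sums.

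HNF4A targets went both ways. Of 20, 3 rose and 8 fell in Alc against Ctrl on the deposited scale (median -0.32), against 3 and 1 for quantile-normalized values, 3 and 2 with median-of-ratios size factors, and 3 and 4 with libraries scaled to the same sum. The risen genes included the cytochrome P450 gene Cyp2c29 (269 ± 53.8 in Alc, 91.2 ± 31.7 in Ctrl; adjusted p = 0.0025) and F7, coagulation factor VII (51.9 ± 13.5 and 31.2 ± 5.21; adjusted p = 0.0051). Among the fallen was Pck1, the gluconeogenic enzyme PEPCK (1547 ± 330 and 2424 ± 220; adjusted p = 0.0045), a call that ended with median-of-ratios size factors (0.059). Of 15 C/EBP targets, 1 rose and 2 fell, and of 13 FOXA targets tested, of 14 listed, 1 rose and 4 fell, Foxa3 itself among them. With median-of-ratios size factors, 0 C/EBP and 0 FOXA targets were lower, 1 and 2 higher. The hepatocyte product Alb was at 36508 ± 5080 in Alc and 27562 ± 6334 in Ctrl (0.43, adjusted p = 0.18).

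Against Ctrl, the Alc UA livers had 4 risen and 1 fallen LRH-1 target, 4 and 2 LXR targets, 3 and 7 HNF4A targets, 1 and 3 C/EBP targets and 2 and 4 FOXA targets. The splits with fewer risen than fallen genes depended on the scale. For quantile-normalized values and with size factors alike, HNF4A targets were at 3 and 4, C/EBP targets at 1 and 1 and FOXA targets at 2 and 1; with equal sums they were at 3 and 5, 1 and 1, and 2 and 3. LXR targets were at 5 and 2, 5 and 2, and 4 and 2 in the same order of rescalings, and LRH-1 targets at 4 and 0 in each. Gys2, liver glycogen synthase and a C/EBP target, was at 204 ± 69.7 FPKM against 77.5 ± 14.99 in Ctrl (1.34 ± 0.20, adjusted p = 2.2e-04), and Ttr, transthyretin, at 3707 ± 711 against 7347 ± 1132 (adjusted p = 4.0e-04). Cpt1a, the carnitine palmitoyltransferase on the FOXA list, was at 277 ± 32.4 against 184 ± 34.0 (adjusted p = 0.0061), and Mylip, an LXR target that degrades the LDL receptor, was at 3.50 ± 0.627 against 12.1 ± 4.12 (adjusted p = 1.8e-04). In Alc UA against Alc no gene of any of these lists was called.

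Among 14 coregulators of these factors, 1 rose and 1 fell in Alc against Ctrl, beside 10.6% and 22.8% of all genes. The split became 4 and 0 for quantile-normalized values and with median-of-ratios size factors, and 2 and 0 with libraries scaled to the same sum. The coactivator gene Ppargc1b was at 2.03 ± 0.469 in Alc and 1.24 ± 0.509 in Ctrl (adjusted p = 0.022), and the demethylase gene Kdm1a at 4.44 ± 0.517 and 6.16 ± 0.939 (adjusted p = 0.022). Both calls ended without Ctrl 1 and Ctrl 5 (0.082 and 0.051, an alternative chosen after seeing the data). That of Ppargc1b also ended with only the Alc and Ctrl libraries fitted (0.052) and without Ctrl 2, Ctrl 4 or Alc 2 (0.055, 0.053 and 0.057), and that of Kdm1a without Ctrl 1, Ctrl 3 or Alc 1 (0.057, 0.052 and 0.060) and under the 3 rescalings (0.065 to 0.13). In Alc UA against Ctrl 3 rose and 1 fell, beside 10.5% and 32.1% of all genes; these became 6 and 0 for quantile-normalized values, 5 and 0 with size factors, and stayed at 3 and 1 with equal sums. Among the risen was Ncoa2, a nuclear receptor coactivator gene, at 5.85 ± 0.936 against 4.07 ± 0.550 (adjusted p = 0.0039).

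Of 35 other liver-enriched factors, 31 were tested; 8 rose and 8 fell in Alc against Ctrl, and 8 rose and 9 fell in Alc UA against Ctrl. The background was 10.6% higher and 22.8% lower in the first comparison, and 10.5% and 32.1% in the second. The first split was 11 and 5 for quantile-normalized values, 12 and 5 with size factors and 10 and 5 with equal sums; the second was 10 and 7, 14 and 7, and 8 and 7. Tef and Hlf, PAR leucine zipper factors of the clock output, were higher in Alc (63.0 ± 12.2 against 17.9 ± 3.52 FPKM in Ctrl, adjusted p = 2.1e-06, and 15.6 ± 0.610 against 8.55 ± 1.26, adjusted p = 6.9e-05). Nr2f6, an orphan receptor gene, was lower (24.9 ± 2.46 against 38.1 ± 2.19, adjusted p = 0.0012). Gata4, a zinc finger factor that liver endothelium also expresses, was at 3.53 ± 0.406 in Alc UA against 9.23 ± 2.24 in Ctrl (adjusted p = 6.7e-05). Nr1h4, the bile acid receptor FXR (0.01, adjusted p = 0.97), did not pass in Alc against Ctrl.

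**Figure D5:**
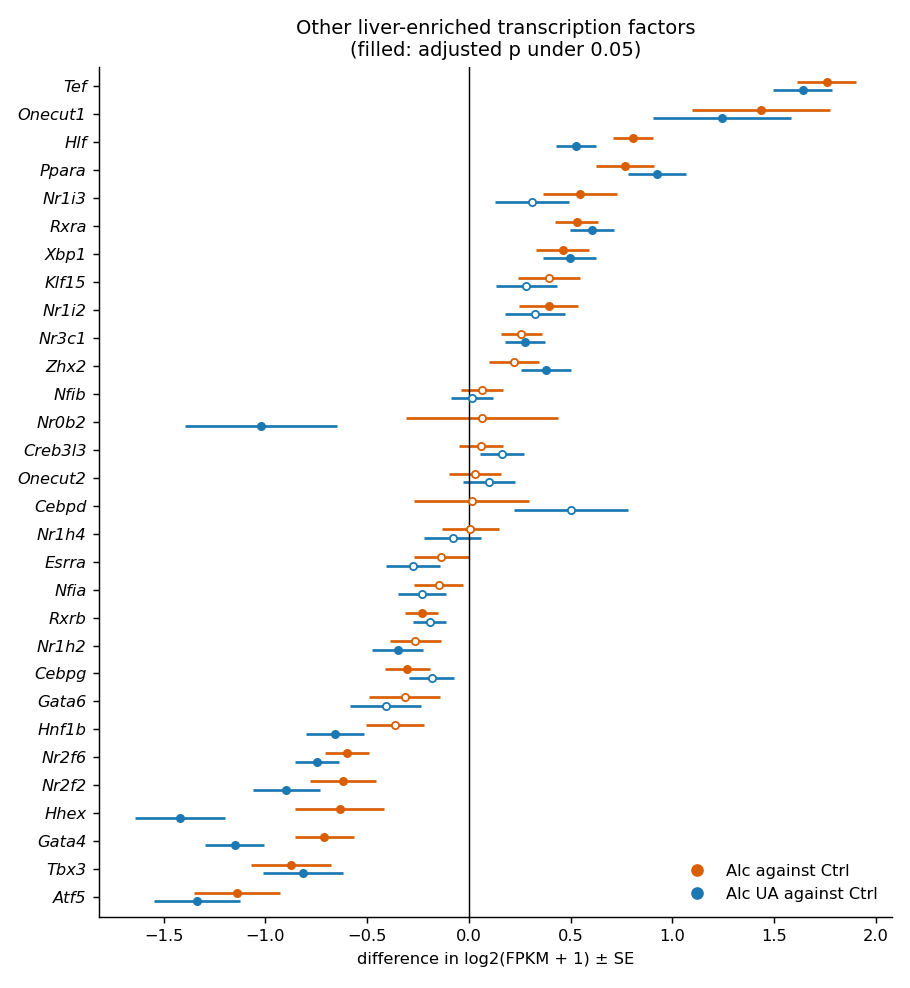
Difference from Ctrl in log2(FPKM + 1) ± SE (horizontal axis) for 30 of the 31 other liver-enriched transcription factors that were tested, in Alc (orange) and Alc UA (blue), filled where the adjusted p was under 0.05. Tef lies at the upper end, at 1.76 and 1.64; the lowest points are Atf5 in Alc, at -1.14, and Hhex in Alc UA, at -1.42; both series share the 5 control livers.

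The genes with the most similar profile were sought among 9293 tested genes with a mean of at least 2 FPKM, by the root mean square difference of centred log2(FPKM + 1) over the 15 libraries. For Foxa2 the nearest was Hhex, a homeobox factor of early liver and bile duct development, at 0.30 against a spread of Foxa2 itself of 0.68. Hhex was at 60.7 ± 13.4 FPKM in Ctrl, 39.5 ± 11.2 in Alc and 22.0 ± 5.33 in Alc UA, and it fell in Alc against Ctrl by 0.63 ± 0.22 (adjusted p = 0.036) and in Alc UA against Ctrl by 1.42 ± 0.22 (adjusted p = 2.6e-04). Prickle3 was the second nearest to Foxa2, at 0.33. For Nr5a2 the nearest were Pde3b and Jade1 (0.12 each, own spread 0.28), and for Foxa3 Ccnq and 2810459M11Rik (0.20 and 0.22, own spread 0.38). Nr1h3 had the closest neighbour of all members, Plekha3 at 0.08, followed by Mrpl10 at 0.10. The nearest to the others were Arih2 and Svil for Hnf4a (0.13 and 0.15), Tm2d2 and Gm2a for Cebpa (0.13 and 0.14), Bnip3 and C2cd2l for Cebpb (0.16 each), Hdac5 and Rere for Foxa1 (0.11 and 0.12), and Ddx24 and Lig3 for Prox1 (0.12 and 0.13).

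The hepatocyte label of the factors could not be checked, since whole livers do not show which cells hold a transcript. All 10 hepatocyte markers listed reached 1 FPKM in every library. Their summed level was 39448 to 60337 FPKM in Ctrl, 48791 to 64959 in Alc and 33949 to 52704 in Alc UA; 1 rose and 2 fell in each comparison with Ctrl. Because whole livers were sequenced, fewer cells of a type and less RNA per cell cannot be told apart. Of all tested genes, 22.8% were lower in Alc and 32.1% in Alc UA against Ctrl. Of 11 sinusoidal endothelial markers, 10 were lower in Alc and 11 in Alc UA against Ctrl, and 0 were higher. Their summed levels were 154 to 446 FPKM in Ctrl, 65.5 to 151 in Alc and 71.0 to 90.9 in Alc UA. All 5 erythroid genes tested, of 6 listed, were lower in both comparisons with Ctrl. Their sums were 1431 to 8801, 576 to 988 and 346 to 1033 FPKM. Of 8 cholangiocyte markers, whose cells also express FOXA factors, 5 were tested; 1 was lower in Alc and 2 in Alc UA against Ctrl, with sums of 33.4 to 216, 30.4 to 112 and 25.0 to 68.4 FPKM, and Krt19 lay between 0.24 and 3.8 FPKM. Of 7 T and NK cell markers listed, 3 were tested; 3 fell in Alc and 2 in Alc UA against Ctrl, with sums of 4.06 to 37.95, 2.43 to 9.37 and 2.85 to 9.26 FPKM. Of 5 B and plasma cell markers 4 were tested, and 4 fell in both comparisons with Ctrl, with sums of 7.04 to 20.53, 1.67 to 6.68 and 2.58 to 13.63 FPKM. None of 11 Kupffer cell markers passed in Alc against Ctrl, and Cd5l alone rose in Alc UA against Ctrl (82.5 ± 71.7 against 34.3 ± 24.2 FPKM, adjusted p = 0.044; named after its values were seen). Alc UA 3 stood apart in the summed Kupffer cell markers, at 664.32 FPKM against 207.88 to 248.95 in the other Alc UA livers; Ctrl ranged from 64.22 to 443.51 and Alc from 178.25 to 301.3. Of 5 lymphatic endothelial markers, which bear on Prox1, 2 were tested. Flt4 was at 8.92 ± 2.05 FPKM in Ctrl, 4.67 ± 1.69 in Alc and 3.06 ± 0.433 in Alc UA. It was lower in Alc and in Alc UA against Ctrl (adjusted p = 0.0059 and 2.9e-04). Reln had means of 5.66, 4.46 and 5.12 FPKM in Ctrl, Alc and Alc UA. It did not pass in Alc or in Alc UA against Ctrl (adjusted p = 0.69 and 0.90). Among the untested markers, Pdpn was at 0.3 FPKM or less and Mmrn1 at 0.22 or less in every library. The part of these cell types in the values of Nr5a2, Foxa3 and Foxa2 was not tested.

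The clock genes differed between controls and both alcohol groups, with Dbp at 4.31 ± 1.38 FPKM in Ctrl, 83.3 ± 25.8 in Alc and 73.3 ± 14.1 in Alc UA, and Arntl at 9.74 ± 1.79, 1.21 ± 0.194 and 0.912 ± 0.282. Of 19 clock genes tested, 13 rose and 4 fell in each comparison with Ctrl. The sources used here do not give the hour at which livers were taken, and the part of time of day in the Nr5a2, Foxa3 and Foxa2 differences was not tested. Annotated exons of Cebpb overlap with those of Tmem189 on the opposite strand over 312 bases in GENCODE M21. It is not stated whether counting used strand, so the 2 genes cannot be fully told apart. Exons of Cebpa and Prox1 overlap with those of the opposite-strand genes Gm45091 and Prox1os over 51 and 133 bases, and exons of Nr1h3 with Gm13783 on the same strand over 34 bases, with the same limit.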

How the data were processed

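Liver RNA of 15 mice, isolated by phenol-chloroform, was made into libraries by an MGISEQ protocol, per the labels' protocols. The authors deposited FPKM values to 2 decimals for 18510 gene symbols. The submitters' processing notes name StringTie, RSEM 1.2.8, Bowtie2 2.2.5, DESeq and HISAT2 2.1.0, without roles; the sources used here give no genome build, annotation or strand setting. The FPKM of a library summed to 551153 to 668832, and 10119 to 11471 genes reached 1 FPKM. Read depth is unknown, since the table holds no counts and rounding to 0.01 hides the steps of single reads. Each column name holds a group letter and a replicate number, which matched it to 1 library.

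Values were analysed as log2(FPKM + 1), for genes that reached 1 FPKM in 5 or more libraries, with limma 3.58.1 in R 4.3.3: 1 mean per group, all 15 libraries, 12 residual degrees of freedom, a mean trend in the variance prior, and Benjamini-Hochberg adjustment over 10959 genes at 0.05. On simulated data with 200 changed genes among 10959, the Alc against Ctrl fit recovered 56% of changes of 0.5 and 92% of changes of 1. Of its calls, 3.89% were false. The simulated Alc UA against Alc fit recovered 50% and 88% of the same sizes, with a false share of 5.59%. On the real data 3654 genes were called in Alc against Ctrl, which sets a looser cutoff on the unadjusted p. The simulated rates for Alc against Ctrl therefore do not describe that real comparison. In the real Alc UA against Alc fit 1 gene was called, which sets a stricter cutoff on the unadjusted p than 200 changed genes do. The simulated shares recovered for Alc UA against Alc therefore do not describe the real one either. No set test was run. Results on 1 factor and 1 motif are not reported here. The members, gene lists and motifs were chosen with earlier results of these data known. All 9 members were named, with Dbp and Arntl and the 2 most similar genes per member. From each pathway list genes were drawn from the up to 3 with the smallest p past the threshold in each comparison. Nr0b2, Cyp7a1, Alb, Nr1h4, Atf5 and the markers were added for their known roles or position in a plot after their values were seen. Abcb4 and Cyp8b1 were added, also after their values were seen, as the fallen genes of the LRH-1 list. Figures were drawn with matplotlib 3.10.9. Alternatives changed the pseudocount, filter, scaling, variance prior, library weights, libraries fitted and replicate block, and omitted each library singly.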

Additional observations from a re-analysis of the deposited data

Results flagged for a closer look

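Hnf4a in Ctrl 3 stood apart from the other controls at 153.47 FPKM, with the next highest at 108.74, a gap of 0.792 of the range of the group, above the critical value of 0.71 of Dixon's test for 5 samples. It was the only such value among 27 sets of 5 libraries (9 genes in 3 groups), and chance flags about 1 in 20 sets. Without Ctrl 3, the Hnf4a difference between Alc and Ctrl was 0.09 in place of -0.03 (adjusted p = 0.68). Ctrl 3 was also the highest control for Cebpa, Foxa1, Foxa2 and Prox1.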

How the results depend on the processing

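Each of the 9 factors was refitted under 27 alternatives in each comparison, 15 of which left out 1 library. Leaving out 1 library gave the same direction and call in 375 fits, ended a call in 4, gained one in 3 and turned the sign in 23; the other alternatives gave 293, 5, 8 and 18. The calls that changed are given beside each gene above. All sign changes were of differences without a call, the largest of 0.21, and the cause was not tested. In Alc against Ctrl, Hnf4a became 0.0063 for quantile-normalized values, 0.14 with size factors, 0.11 with equal sums and 0.053 with library weights, and Nr1h3 became 0.043 with size factors and 0.013 with equal sums. In Alc UA against Alc, Foxa1 became 0.023 (quantile) and 0.048 (size factors), Foxa3 0.020, 0.050 and, with library weights, 0.029, and Nr5a2 -0.0020 with equal sums. In Alc UA against Ctrl, Cebpa became 0.077 (quantile), 0.21 (size factors) and 0.054 (equal sums), Foxa1 0.033 and Nr1h3 0.0067 with size factors, and Hnf4a -0.044 without Ctrl 1 and Ctrl 5, an alternative chosen after seeing the data.

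With 1 library left out, Hnf4a ran from -0.12 to 0.090 in Alc against Ctrl, from -0.028 to 0.17 in Alc UA against Alc and from -0.054 to 0.16 in Alc UA against Ctrl. Cebpb in Alc UA against Alc ran from -0.00049 to 0.24, and in that comparison Foxa1 ran from -0.12 to 0.069, Foxa3 from -0.13 to 0.094 and Nr5a2 from -0.0091 to 0.11. Cebpa ran from -0.094 to 0.050 and Prox1 from -0.024 to 0.095 in Alc UA against Ctrl. The number of members called ran from 0 (without Ctrl 4) to 3 in Alc against Ctrl and from 3 to 5 (without Alc UA 3) in Alc UA against Ctrl.

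Over all genes, library weights raised the calls in Alc against Ctrl from 3654 to 5870. The 1 call in Alc UA against Alc became 2 with a filter on a mean of 5 FPKM, 2 with equal sums, 3 with library weights, 0 with only the 2 groups, 0 with the replicate block, 2 without Ctrl 1 and Ctrl 5, and 1 to 5 with 1 library left out. The labels do not say that replicate numbers pair the livers, and the main fit used no pairing. Residuals of same-numbered livers correlated from -0.30 to 0.29. A liver correlated best with its own number in 1, 0 and 1 of 5 cases in the 3 comparisons. With 5 livers per group, these values cannot exclude a pairing. With the replicate block, 2, 0 and 3 members and 3554, 0 and 4534 genes were called. Read depth is unknown, so counting error could not be given.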

Other observations

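Cux2, a homeobox factor known for its female-biased expression in mouse liver and a member of the list of other liver-enriched factors, did not pass the filter but split the alcohol livers. It was at 3.93 FPKM in Alc 1, 1.97 in Alc 3, 3.88 in Alc UA 1 and 4.22 in Alc UA 4, between 0.07 and 0.22 in the other 6 alcohol livers, and between 0.12 and 0.33 in the 5 controls. No group was formed from these values and no difference was tested.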
